A study of Mus musculus with 12 samples.

Results

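The expression of 9 genes for transporters, channels and other membrane proteins of milk-forming epithelium was followed across 4 Stat5 genotypes: Slc34a2, Gjb2, Gjb6, Muc15, Atp2b2, Atp2c2, Slc12a2, Aqp5 and Folr1. They were chosen by gene symbol, with earlier results of these data known. They are 9 of 18194 genes on an Affymetrix whole-genome mouse array, where 13 of 45037 probe sets other than controls carry one of these symbols. RNA came from mammary tissue of 12 mice, 3 per genotype, taken 6 days after a mating plug was seen, early in pregnancy. Values are log2 signals, so a difference of 1 is a doubling.

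The arrays labelled Stat5a-/- come from mice with 0 Stat5a and 2 Stat5b alleles, and those labelled Stat5ab+/null from mice with 1 intact allele of each. Single-Stat5b mice (labelled Stat5abnull/Stat5a-) kept 1 Stat5b allele and no Stat5a, and single-Stat5a mice (labelled Stat5abnull/Stat5b-) kept 1 Stat5a allele and no Stat5b. All were on a mix of C57BL/6, FVB and 129, and every group lacks part of the Stat5 locus, so each difference lies between mutants. The protocol text speaks of PolyIC injection to switch on an Mx1-Cre transgene, and the sample descriptions of sorted cells. The series design speaks of frozen mammary tissue, which was followed here, and the labels leave it unclear if an injection was given.

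Stat5a and Stat5b are transcription factors that carry the prolactin signal into the nucleus of mammary epithelial cells. Under that signal the alveolar epithelium of pregnancy builds up the transport machinery of milk: phosphate and calcium are concentrated into the secretion, sodium, potassium, chloride and water follow across the cell layer, and gap junctions couple the cells. Most of this machinery is known to reach its full level only around birth, so these tissues were sampled well before secretion.

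By number of intact alleles there were 2 sets of arrays, single-Stat5b with single-Stat5a (1-allele arrays) and Stat5a-/- with Stat5ab+/null (2-allele arrays). Spike-in controls, which hold no mouse RNA, differed between the sets by a median of 1.55 on the log2 scale, while the median over tested probe sets differed by 0.03. The actin control probe sets, read at the 3' end less the 5' end, gave 2.16 to 3.78 in 1-allele arrays and 0.13 to 0.27 in 2-allele arrays. The highest was single-Stat5b 1, and its Gapdh control, read the same way, gave 3.91. The other 1-allele arrays gave 2.16 to 3.07 for actin and 1.11 to 2.80 for Gapdh. Allele number and array set cannot be told apart, so genotypes were compared within a set. The targeted genes ran against the labels in the 2-allele set: the Stat5a probe sets differed by 0.39 and 0.56 and the Stat5b probe sets by -0.25 and -0.31 between arrays labelled Stat5a-/- and Stat5ab+/null, none past the test. In the 1-allele set they ran with the labels (single-Stat5b minus single-Stat5a): 1 Stat5a probe set differed by -1.23 (limma adjusted p = 0.00251) and the other by -0.24, and the Stat5b probe sets by 0.64 and 0.20. Whether these probes lie inside the deleted parts was not looked up here, and the titles of these arrays hold ABB where the label is Stat5a-/- and AAB where it is Stat5ab+/null. Luminal epithelium was present in every array: Epcam, the epithelial adhesion gene, stood at 11.94 to 13.46, and the luminal keratin genes Krt8 and Krt18 at 12.77 to 13.68 and 12.46 to 13.78 on their brightest probe sets.

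In all, 9 probe sets for 7 of the genes had a mean above log2 6.04, the 30th percentile of all probe sets, and entered the test. Gjb6 and all 3 probe sets of Atp2b2 lay under it and are given as values. Slc12a2 has 3 of the 9 tested probe sets, which share 1 gene and are not independent. Each difference was tested with limma across 31526 probe sets with a spread pooled over the 4 genotypes. A call means a Benjamini-Hochberg adjusted p under 0.05 over all of them, and an SE or interval comes from that fit. For 3 arrays in each of 2 groups, the smallest p that exact permutation allows is 0.1.

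For 5 of the genes (7 windows) RefSeq promoter sequence of GRCm38.p6 was at hand, and the 250 bases before the start of Slc34a2, Gjb2 and Aqp5 are printed because these genes head the phosphate, gap junction and water transport results below. They were searched on both strands for TTCNNNGAA, the core of the motif known to bind STAT5, which reads the same on both strands. No member window held it, and 7.02% of all 32851 windows of this length did. Capitals mark TTCC or GGAA, the 4-base end of such a site on either strand. That shorter match was in all 7 windows and in 93.45% of all windows, so it sets no gene apart. The first window is chr5:53049103-53049352 on the plus strand, the second chr14:57104703-57104952 on the minus strand and the third chr15:99590778-99591027 on the plus strand.
Slc34a2: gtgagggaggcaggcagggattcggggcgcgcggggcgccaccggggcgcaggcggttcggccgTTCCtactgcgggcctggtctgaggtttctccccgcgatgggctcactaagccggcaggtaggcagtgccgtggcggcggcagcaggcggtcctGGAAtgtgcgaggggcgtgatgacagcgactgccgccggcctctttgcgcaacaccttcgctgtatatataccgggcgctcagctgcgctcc
Gjb2: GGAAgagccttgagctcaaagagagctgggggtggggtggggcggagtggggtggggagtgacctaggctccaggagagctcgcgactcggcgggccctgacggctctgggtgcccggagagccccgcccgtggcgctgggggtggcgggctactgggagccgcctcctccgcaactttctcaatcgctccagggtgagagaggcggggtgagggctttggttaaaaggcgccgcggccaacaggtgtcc
Aqp5: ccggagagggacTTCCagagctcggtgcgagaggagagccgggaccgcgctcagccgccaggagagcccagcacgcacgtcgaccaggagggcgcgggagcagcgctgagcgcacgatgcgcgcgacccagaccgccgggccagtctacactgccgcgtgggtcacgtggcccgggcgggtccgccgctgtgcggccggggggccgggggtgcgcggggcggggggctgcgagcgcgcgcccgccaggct

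Slc12a2 on chromosome 18 encodes the cotransporter that loads sodium, potassium and chloride into epithelial cells from the blood side, and in mouse mammary gland is known for ducts more than for secreting alveoli. Its signal was lower in arrays labelled Stat5a-/- than in those labelled Stat5ab+/null, and higher in single-Stat5b than in single-Stat5a arrays. Neither difference passed alone. The difference between them passed with the 2-allele arrays as labelled, and not with their 2 labels exchanged. On its brightest probe set, 1417622_at, Slc12a2 stood at 13.11, 12.78 and 12.82 in arrays labelled Stat5a-/- and at 13.66, 13.48 and 13.77 in those labelled Stat5ab+/null. The 2 groups do not overlap, and the difference was -0.73 (SE 0.20, 95% interval -1.17 to -0.29, adjusted p = 1.00). The same probe set stood at 13.28, 13.39 and 12.65 in single-Stat5b and at 12.53, 12.38 and 12.44 in single-Stat5a. Again the groups do not overlap, with single-Stat5b 3 close to the single-Stat5a arrays, and the difference was 0.66 (SE 0.20, interval 0.22 to 1.10, adjusted p = 0.140). The second difference minus the first was 1.39 (SE 0.29, interval 0.77 to 2.02), 2.62-fold, with a limma adjusted p = 0.0364. Calls in this interaction made up 1.09% of tested probe sets, and this was the 1 call among the 9. The call rests on the labels of the 2-allele arrays, against which the Stat5a and Stat5b probe sets ran. With the labels Stat5a-/- and Stat5ab+/null exchanged, an alternative chosen after seeing the data, the interaction was -0.073 (SE 0.29, interval -0.70 to 0.55, limma adjusted p = 0.972), and 0 of the 9 probe sets were called. At an unadjusted p under 0.05 there were then 3 of 9 (Slc34a2, Gjb2 and Muc15). The exchange turns the sign of the 2-allele difference by construction, so it is no test of the labels. The 2 differences share no arrays. Probe sets that were lower without overlap in arrays labelled Stat5a-/- and higher without overlap in single-Stat5b made up 0.482% of those tested.

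The other Slc12a2 probe sets ran the same way. The second, 1448780_at, stood at 11.01, 10.00 and 9.80 in arrays labelled Stat5a-/- and at 11.66, 11.04 and 11.74 in those labelled Stat5ab+/null, without overlap (difference -1.21, SE 0.43). In single-Stat5b it stood at 9.82, 9.75 and 8.16, and in single-Stat5a at 7.97, 8.06 and 8.68, where single-Stat5b 3 falls inside the single-Stat5a range (1.01, SE 0.43). Without that array the difference was 1.55 and passed, as did the first probe set at 0.89. In that fit limma called 6.39% of all tested probe sets, against 2.89% with every array. The third, 1417623_at, averaged 8.38 ± 0.68 in arrays labelled Stat5a-/- and 9.64 ± 0.45 in those labelled Stat5ab+/null (SD, n = 3 each; difference -1.25, SE 0.32), with Stat5a-/- 1 just above the lowest Stat5ab+/null array. The same probe set averaged 8.78 ± 0.22 in single-Stat5b and 8.29 ± 0.25 in single-Stat5a (0.49, SE 0.32). Their interactions were 2.22 (SE 0.61) and 1.74 (SE 0.45), uncalled at limma adjusted p = 0.161 and 0.117, and -0.21 and -0.76 with the 2-allele labels exchanged. The call on the brightest probe set was kept without single-Stat5b 2 (adjusted p = 0.0442) or single-Stat5b 3 (0.00350). It ended without any one of Stat5a-/- 1 (0.0537), 2 (0.135) and 3 (0.104), Stat5ab+/null 1 (0.100), 2 (0.0659) and 3 (0.115), single-Stat5a 1 (0.0768), 2 (0.0886) and 3 (0.0836), and single-Stat5b 1 (0.0890), at values of 1.30 to 1.50 in those 10 fits.

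Aqp5 on chromosome 15, the gene of a water channel in the membranes of gland and duct epithelium, showed the same order in the 2-allele set. It stood at 9.73, 9.01 and 9.34 in arrays labelled Stat5a-/- and at 10.60, 9.85 and 10.74 in those labelled Stat5ab+/null. Every array labelled Stat5a-/- lay below every Stat5ab+/null array, and the difference was -1.03 (SE 0.31, 2.05-fold, interval -1.70 to -0.36, adjusted p = 1.00). Values were 10.67, 9.64 and 10.66 in single-Stat5b and at 9.91, 9.67 and 9.95 in single-Stat5a. Here 2 of the 3 single-Stat5b arrays were above the single-Stat5a range and 1 was just under it (0.48, SE 0.31, adjusted p = 0.645). Leaving out 1 single-Stat5b array moved that value to 0.31 (without the first or the third) or 0.82 (without the second). The interaction was 1.51 (SE 0.44, limma adjusted p = 0.195), and -0.55 with the 2-allele labels exchanged. Stat5a-/- 1 was the highest of its group for Aqp5 and for all 3 Slc12a2 probe sets, and Stat5ab+/null 2 the lowest of its group for the same 4.

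**Figure D1:**
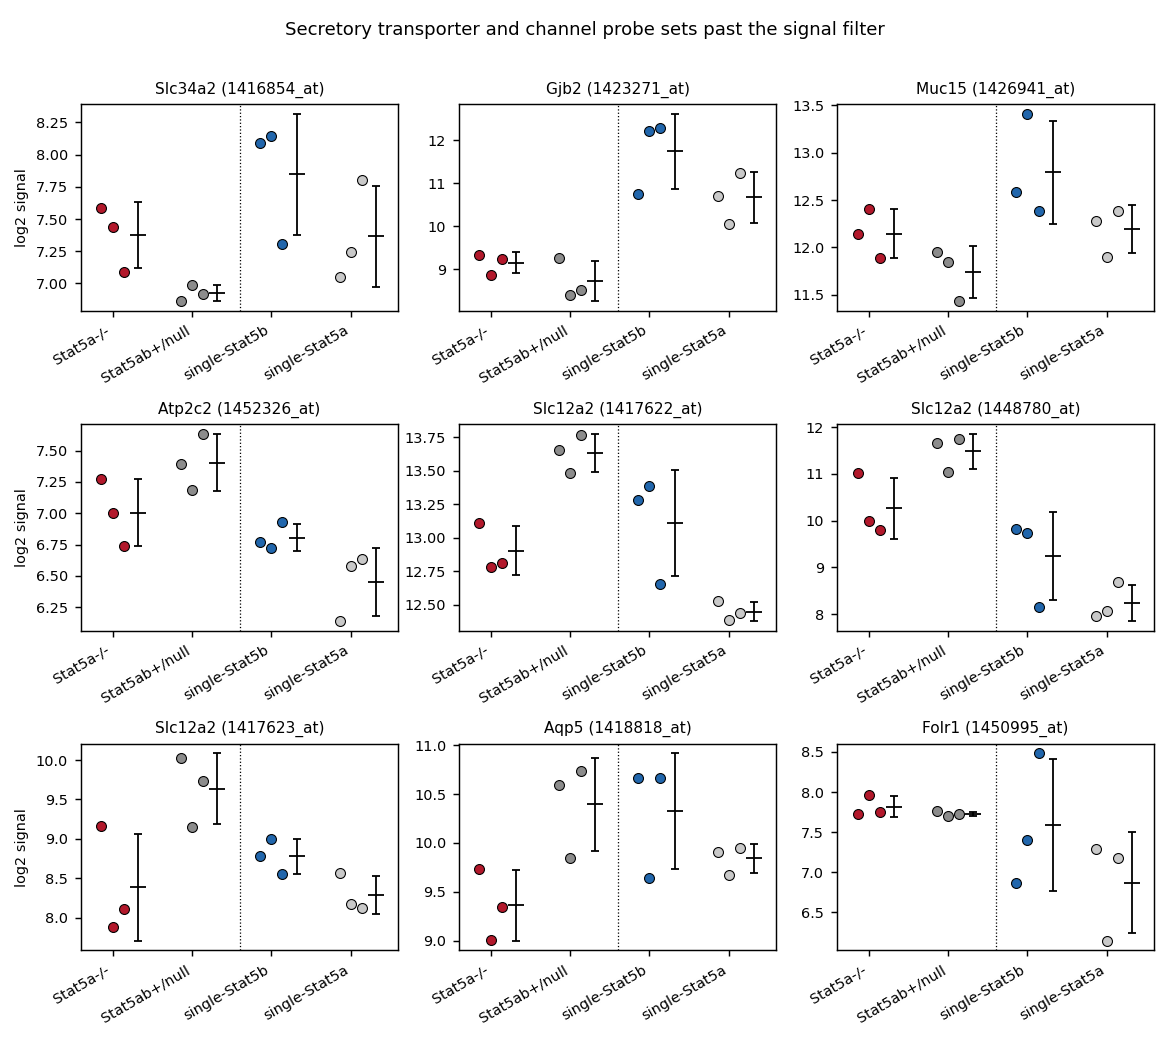
Log2 signal (vertical axes, each with its own range) of the 9 probe sets past the filter in every array, by labelled genotype; points are arrays and the bars beside them the mean and SD of 3. The dotted line parts the 2-allele from the 1-allele arrays; the brightest Slc12a2 probe set is below Stat5ab+/null in the arrays labelled Stat5a-/- and above single-Stat5a in single-Stat5b, without overlap in either set.

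Signals of the general and hormone-sensing luminal marker lists moved in the same directions as Slc12a2 and Aqp5. Those of the alveolar luminal progenitor list did not in the 2-allele set. The mean of 19 luminal marker genes was 10.45 to 10.78 in arrays labelled Stat5a-/- and 10.68 to 10.93 in those labelled Stat5ab+/null, and 10.31 to 10.84 in single-Stat5b against 9.97 to 10.56 in single-Stat5a. Of the 31 luminal probe sets, 25 were lower in arrays labelled Stat5a-/- (median -0.11, against -0.05 over all tested). In single-Stat5b 28 were higher (median 0.32, against -0.00 over all). Limma called 0 in either set, with 2 and 1 at an unadjusted p under 0.05. The hormone-sensing luminal list ran the same way, with medians of -0.25 and 0.30 over 17 probe sets, and 14 of 17 above 0 in the interaction (median 0.48; 0 called, 7 at an unadjusted p under 0.05). Its mean was 9.86 to 10.12 in arrays labelled Stat5a-/- and 10.13 to 10.39 in those labelled Stat5ab+/null, and 10.34 to 10.40 in single-Stat5b against 9.54 to 10.07 in single-Stat5a. White adipocyte markers ran the other way in the 1-allele set, with 0 of 6 probe sets above 0 (median -0.61) and means of 11.60 to 12.49 in single-Stat5b and 12.46 to 12.81 in single-Stat5a. In the 2-allele set their median was -0.01. The alveolar luminal progenitor list had 10 of 17 probe sets above 0 in each set (medians 0.04 in the 2-allele and 0.08 in the 1-allele set). Limma called 0 of them in the 2-allele set, and 1 higher and 1 lower in the 1-allele set. In the interaction 12 of 17 were below 0 (median -0.21), with 1 called, above 0. In tissue RNA, fewer cells of a type and less RNA per cell cannot be told apart. With the luminal mean as a covariate, the brightest Slc12a2 probe set differed by -0.76 in the 2-allele set and 0.70 in the 1-allele set, no smaller than without it, but the interaction (1.46) had an adjusted p = 0.105. Aqp5 differed by -0.78 and 0.09 with the covariate. With B cell and muscle marker means as covariates, the Slc12a2 interaction was 1.10 (adjusted p = 0.457) and the 1-allele difference of 1448780_at was 0.29.

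Markers of other tissues varied between mice of 1 genotype. The B and plasma cell mean was 6.95 to 11.87 in arrays labelled Stat5a-/- and 8.13 to 12.23 in those labelled Stat5ab+/null, highest in Stat5a-/- 3 and Stat5ab+/null 2. The skeletal muscle mean was 7.69 to 10.73 in single-Stat5b and 9.83 to 13.76 in single-Stat5a. Of the single-Stat5b arrays, single-Stat5b 3 had the highest muscle mean and also the highest luminal mean (10.84). That array was the lowest of its group for Slc34a2, Muc15 and all 3 Slc12a2 probe sets, and the highest for Gjb2, Atp2c2 and Folr1. Salivary glands also use Slc12a2 and Aqp5. The mean of 10 salivary marker genes was 5.78 to 5.94 over all arrays. Of these genes, Smr3a, Dcpp1, Bpifa2, Pip, Mucl2, Smgc and Cst10 were under the filter level, and Amy1, Klk1 and Bhlha15 were past it. In the 1-allele set limma called 3 of the 6 tested probe sets of the list, all higher in single-Stat5b, against 2.89% of all probe sets. The kallikrein gene Klk1 rose on 2 of its probe sets (by 2.49 and 1.83, limma adjusted p = 0.0280 and 0.00784), while 2 others differed by 1.79 and -0.32. Bhlha15, a factor of secretory cells, differed by 0.63 (adjusted p = 0.0495). Amy1, an amylase gene on the same list chosen after its values were seen, ran the other way without a call. It stood at 12.92, 12.60 and 13.12 in single-Stat5b and at 13.36, 13.37 and 13.33 in single-Stat5a, without overlap (-0.47, adjusted p = 0.248). The first Klk1 call ended without any one of 5 arrays (largest adjusted p = 0.113), and the Bhlha15 call without any one of 11 (largest 0.150). Skin also uses connexins. Of its 9 marker probe sets, 4 were above and 5 below 0 in the 1-allele set (median -1.19), and limma called 3, all lower in single-Stat5b, where Cdsn fell by 6.18 and Sbsn by 1.77 (adjusted p = 1.61e-07 and 0.0108). Lor, a gene of the horny layer chosen after its values were seen, differed the other way, by 0.81 and 0.56 on 2 probe sets (adjusted p = 0.305 and 0.342). The Sbsn call ended without single-Stat5a 1 (0.0594) or single-Stat5b 1 (0.0537). The part of these tissues in the differences above was not tested beyond the covariates given.

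**Figure D2:**
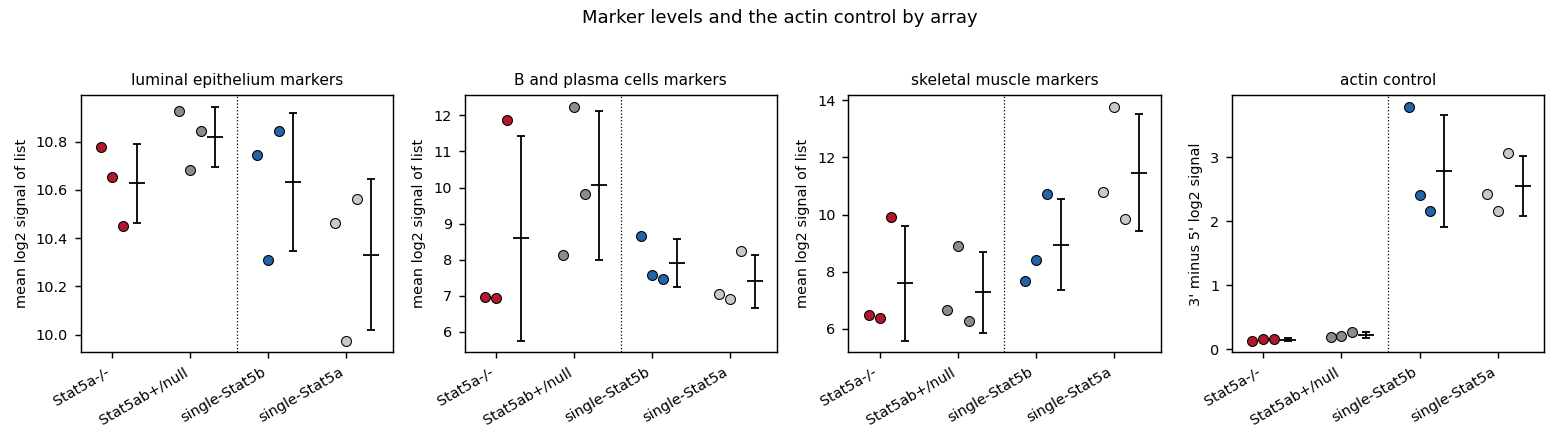
Mean log2 signal of the luminal, B and plasma cell and skeletal muscle marker lists in each array, and the 3' minus 5' log2 signal of the actin control, by labelled genotype; points are arrays and bars the mean and SD of 3. The actin value parts the array sets (2.16 to 3.78 against 0.13 to 0.27), and the B cell and muscle means spread widely within genotypes.

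Phosphate transport is represented by Slc34a2 on chromosome 5, the gene of the sodium-driven phosphate carrier of the milk-facing membrane. It stood at 7.59, 7.44 and 7.09 in arrays labelled Stat5a-/- and at 6.86, 6.99 and 6.92 in those labelled Stat5ab+/null. Every array labelled Stat5a-/- was the higher, by 0.45 on average (SE 0.26, 1.37-fold, interval -0.10 to 1.00, adjusted p = 1.00). It reached 8.09, 8.14 and 7.31 in single-Stat5b and at 7.05, 7.25 and 7.80 in single-Stat5a. The groups overlap through single-Stat5b 3 and single-Stat5a 3, and the difference was 0.48 (SE 0.26, adjusted p = 0.524). As labelled, the 2 differences were close in size, with an interaction of 0.03 (SE 0.36, interval -0.75 to 0.81). With the 2-allele labels exchanged, the interaction was 0.93 (interval 0.15 to 1.71, limma adjusted p = 0.432). The 1-allele difference was 0.75 without single-Stat5b 3, and 0.08 with B cell and muscle means as covariates.

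Muc15 on chromosome 2 encodes a mucin of the apical membrane that is also found on milk fat globules. It stood at 12.14, 12.41 and 11.89 in arrays labelled Stat5a-/- and at 11.95, 11.85 and 11.43 in those labelled Stat5ab+/null, where the lowest of the first group lies among the second (0.40, SE 0.27, adjusted p = 1.00). In single-Stat5b it stood at 12.59, 13.41 and 12.38 and in single-Stat5a at 12.28, 11.90 and 12.38. The 2 groups meet at 12.38, and the difference was 0.60 (SE 0.27, 1.52-fold, interval 0.02 to 1.18, adjusted p = 0.393). The difference rested in part on single-Stat5b 2 and was 0.29 without that array and 0.15 with 4 arrays left out together. In the 2-allele set it was 0.25 without Stat5ab+/null 3. The Muc15 interaction was 0.20 (SE 0.38), and 1.00 with the 2-allele labels exchanged (limma adjusted p = 0.399).

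Gap junctions are represented by Gjb2 (connexin 26) and Gjb6 (connexin 30), neighbours on chromosome 14 whose proteins form channels between epithelial cells. Gjb2 stood at 10.74, 12.21 and 12.28 in single-Stat5b and at 10.71, 10.05 and 11.24 in single-Stat5a. Of the single-Stat5b arrays, 2 were above the single-Stat5a range and the first was inside it, and the difference of 1.07 (SE 0.41, 2.11-fold, interval 0.20 to 1.95) had an adjusted p = 0.271. Without single-Stat5b 1, the array with the highest actin 3' minus 5' signal, it was 1.57 and passed (limma adjusted p = 0.0332). In that fit 2.39% of all probe sets were called. The Gjb2 difference was 0.76 without single-Stat5a 2, 0.53 with 4 arrays left out together and 0.43 with array weights (adjusted p = 0.649). It was larger in other fits that stayed uncalled. These include 1.36 without single-Stat5a 3 (adjusted p = 0.186) and 1.20 with the actin signal as a covariate (adjusted p = 0.192). In the 2-allele set Gjb2 averaged 9.15 ± 0.24 in arrays labelled Stat5a-/- and 8.73 ± 0.47 in those labelled Stat5ab+/null (SD, n = 3 each), which overlap (0.42, SE 0.41; 0.69 without Stat5ab+/null 1 and 0.26 without Stat5ab+/null 2). The Gjb2 interaction was 0.65 (SE 0.57), and 1.50 with the 2-allele labels exchanged (limma adjusted p = 0.417). Gjb6 was under the filter, at 6.25, 6.03 and 5.95 in arrays labelled Stat5a-/- against 5.81, 5.75 and 5.69 in those labelled Stat5ab+/null. These do not overlap, by a small margin near the filter level. Gjb6 was 5.52 to 5.93 in single-Stat5b and 5.71 to 5.93 in single-Stat5a.

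Calcium reaches milk through pumps of the secretory pathway and the apical membrane. Atp2c2 on chromosome 8, the gene of a calcium and manganese pump of the Golgi, stood at 7.27, 7.00 and 6.74 in arrays labelled Stat5a-/- and at 7.40, 7.18 and 7.64 in those labelled Stat5ab+/null. The groups overlap, and the difference was -0.40 (SE 0.20, interval -0.84 to 0.04), or -0.27 without Stat5a-/- 3. It stood at 6.77, 6.73 and 6.93 in single-Stat5b, all above the 6.14, 6.58 and 6.64 of single-Stat5a (0.35, SE 0.20, adjusted p = 0.568). Without single-Stat5a 1 it was 0.20. Its interaction was 0.75 (SE 0.29, adjusted p = 0.462), in the direction of Slc12a2 and Aqp5, and -0.05 with the 2-allele labels exchanged. Atp2b2 on chromosome 6, the gene of the plasma membrane pump that extrudes calcium into milk, had a mean under the filter level on each of its 3 probe sets. They lay at 4.70 to 6.14 in arrays labelled Stat5a-/-, 4.69 to 6.16 in those labelled Stat5ab+/null, 4.88 to 6.84 in single-Stat5b and 5.12 to 6.12 in single-Stat5a. The brightest of them, 1420403_at, reached 6.08, 6.84 and 5.91 in single-Stat5b against 5.44, 5.47 and 6.12 in single-Stat5a, which overlap.

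**Figure D3:**
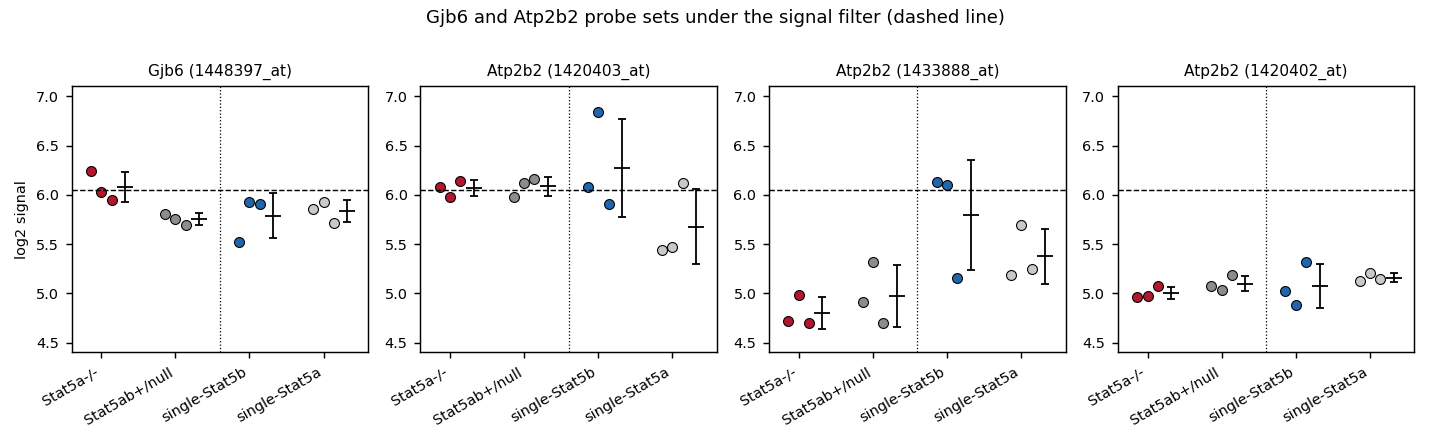
Log2 signal of the Gjb6 probe set and the 3 Atp2b2 probe sets in each array, by labelled genotype, on 1 shared vertical range; the dashed line is the filter level of log2 6.04 and bars are the mean and SD of 3 arrays. Most arrays lie under the line for Gjb6 and the dimmer Atp2b2 probe sets, while those of the brightest, 1420403_at, lie on both sides of it. For that probe set the 1-allele arrays spread more than the 2-allele arrays.

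Folr1 on chromosome 7 encodes the folate receptor whose shed form is the folate-binding protein of milk. It hardly varied in the 2-allele set, at 7.73, 7.96 and 7.76 in arrays labelled Stat5a-/- and 7.76, 7.70 and 7.72 in those labelled Stat5ab+/null (0.09, SE 0.36, interval -0.70 to 0.88). In the 1-allele set it stood at 6.87, 7.41 and 8.48 in single-Stat5b and at 7.29, 6.14 and 7.17 in single-Stat5a. These overlap widely, and the difference of 0.72 (SE 0.36) had an adjusted p = 0.496, and was 0.34 with the luminal mean as a covariate, 0.35 without single-Stat5a 2 and 0.27 without single-Stat5b 3.

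Set side by side, the 9 tested probe sets split in the 2-allele set and ran 1 way in the 1-allele set. The genes were chosen with earlier results of these data known, so the counts and shares here are a description and not a test. In arrays labelled Stat5a-/-, Slc34a2, Gjb2, Muc15 and Folr1 were above and Slc12a2, Aqp5 and Atp2c2 below Stat5ab+/null (median of the 9 probe sets -0.40, against -0.05 over all tested). In single-Stat5b all 9 were above single-Stat5a (median 0.60, against -0.00 over all). Limma called 0 of the 9 in either set, where it called 0.00952% and 2.89% of all tested probe sets. At an unadjusted p under 0.05 there were 4 of 9 in the 2-allele set (the 3 of Slc12a2 and Aqp5; 2.84% of all probe sets), 4 of 9 in the 1-allele set (Gjb2, Muc15 and 2 of Slc12a2; 11.8% of all) and 5 of 9 in the interaction (3 of Slc12a2, Aqp5 and Atp2c2; 7.47% of all). Groups did not overlap for 4 of 9 in the 2-allele set, against 17.5% of all probe sets: 1 higher (6.17% of all) and 3 lower (11.3% of all). They did not overlap for 2 of 9 in the 1-allele set, against 11.5% of all, both higher (5.29% of all). Spreads were unequal: the SD of 3 arrays of the brightest Slc12a2 probe set was 0.40 in single-Stat5b and 0.07 in single-Stat5a. For Folr1 it was 0.13 in arrays labelled Stat5a-/- and 0.03 in those labelled Stat5ab+/null, against 0.82 in single-Stat5b and 0.63 in single-Stat5a. The pooled SE is thus not the spread of the 2-allele arrays alone. Fitted on only the arrays compared, limma called 0 of the 9 in either set, against 0.0127% and 1.52% of all. The 2-allele adjusted p of Slc12a2 1417622_at was then 0.269.

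**Figure D4:**
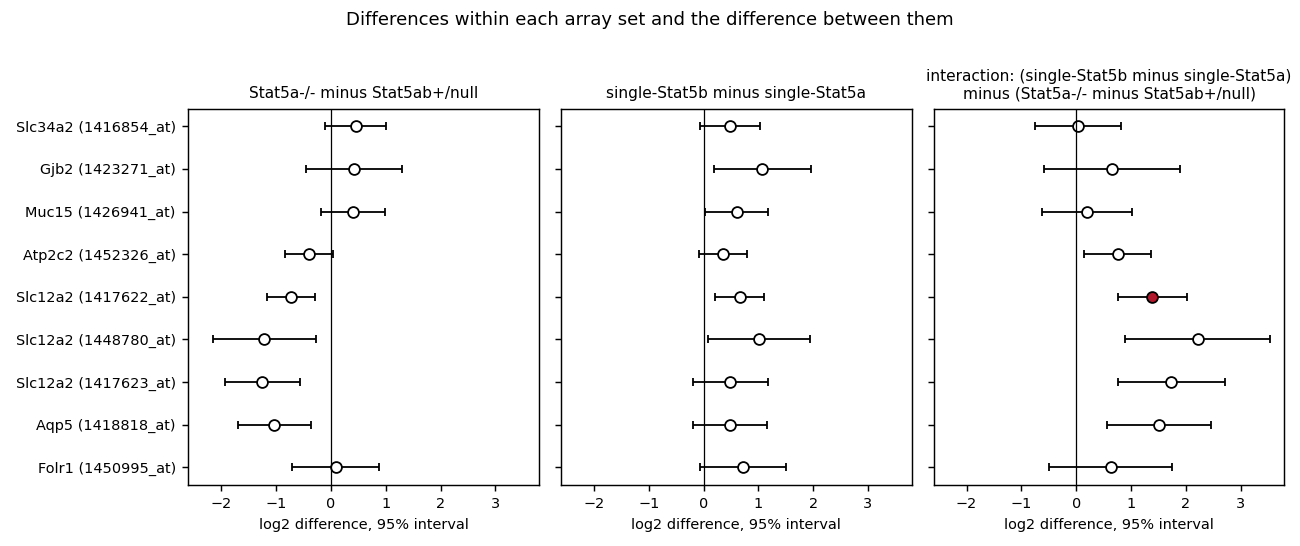
Log2 differences with 95% limma intervals for the 9 tested probe sets: Stat5a-/- minus Stat5ab+/null as labelled (left), single-Stat5b minus single-Stat5a (middle) and the second minus the first (right). The filled point is the 1 call, Slc12a2 at 1.39 (-0.073 with the 2-allele labels exchanged); the 3 Slc12a2 probe sets and Aqp5 lie left of 0 in the first panel and right of it in the others.

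Levels across the array sets are given as a description, since 53.9% of tested probe sets did not overlap between the sets. Gjb2 was the 1 of the 9 without overlap, at 10.05 to 12.28 in 1-allele arrays and 8.40 to 9.34 in 2-allele arrays, a shift of 2.27 that 9.86% of probe sets exceeded. The Slc12a2 probe sets shifted unequally, by -0.49, -2.13 and -0.48 from the brightest to the dimmest (1-allele minus 2-allele). A gene's own probe sets therefore do not give 1 value for the step between the sets. On the same scale the shifts were 0.46 for Slc34a2, 0.55 for Muc15, 0.21 for Aqp5, -0.54 for Folr1 and -0.57 for Atp2c2.

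Related transport genes were read from 7 lists of 116 genes, also written with earlier results of these data known. Of these, 83 genes passed the filter with 169 probe sets. In the 2-allele set limma called 0 of the 169. In the 1-allele set it called 7, or 4.14%, against 2.89% of all probe sets. The lists of other calcium transport genes (35 probe sets), sodium, potassium and chloride transport (21), connexins other than Gjb2 and Gjb6 (11) and aquaporins other than Aqp5 (11) had 0 calls by limma in either set. At an unadjusted p under 0.05 they had 3, 3, 0 and 2 probe sets in the 1-allele set and 0, 2, 1 and 1 in the 2-allele set. Median differences in the 1-allele set were -0.04, 0.19, 0.14 and -0.18 for those 4 lists, and -0.06, -0.08, 0.04 and 0.20 in the 2-allele set.

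The calls lay among nutrient, anion and mucin genes. Slc28a3, a carrier of nucleosides, averaged 9.09 ± 0.31 in single-Stat5b and 7.59 ± 0.31 in single-Stat5a and rose by 1.50 (limma adjusted p = 0.000657). Slc15a2, a carrier of small peptides, fell by 1.64 and 2.00 on 2 probe sets (adjusted p = 0.00196 and 0.000718), while the other one differed by 1.44 the other way (adjusted p = 0.0635). Slc11a2, an iron carrier, fell by 1.22 on 1 probe set (adjusted p = 0.00115), and the others differed by 0.16 and 0.17. Atp7a, a copper pump, fell by 0.87 on 1 probe set (adjusted p = 0.0155; 0.0785 without single-Stat5a 1) and differed by 0.43 on another. Slc5a5, the iodide carrier that loads milk with iodide, averaged 8.44 ± 0.56 in single-Stat5b and 6.75 ± 0.27 in single-Stat5a and rose by 1.69 (adjusted p = 0.0124), with another probe set at -0.28. That call ended without single-Stat5a 2 (adjusted p = 0.0638) or single-Stat5b 1 (0.0601). Muc20, a membrane mucin, fell by 1.26 (adjusted p = 0.00492), with another probe set at -0.68. In the interaction limma called 2 of the 169 (1.18%, against 1.09% of all probe sets). The interaction of Slc11a2 was -1.20 (limma adjusted p = 0.0349), a call that held without 3 of the 12 arrays in turn. That of Atp7b, a copper pump named after its values were seen, was -2.86 (adjusted p = 0.00331). Atp7b averaged 8.54 in arrays labelled Stat5a-/- and 6.65 in those labelled Stat5ab+/null, and 8.85 in single-Stat5b and 9.83 in single-Stat5a. It was not called within either set. With the 2-allele labels exchanged, the interaction was -1.24 for Slc11a2 (adjusted p = 0.0236) and 0.92 for Atp7b (0.566). For Slc15a2, Slc11a2, Atp7a and Slc5a5 the probe sets of 1 gene thus point in different directions, unlike those of Slc12a2.

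**Figure D5:**
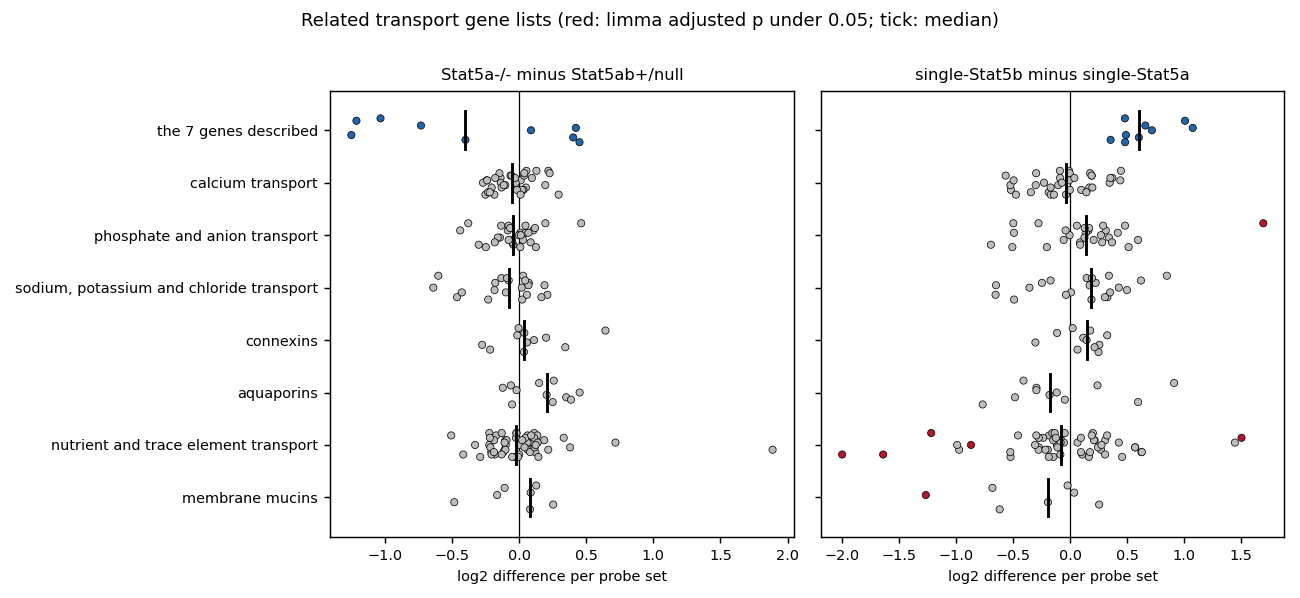
Log2 difference of each tested probe set (horizontal axis) in the 2-allele set (left) and the 1-allele set (right) for the 7 tested genes described here (top row) and 7 lists of related transport genes; red points passed limma at an adjusted p under 0.05 and the tick is the median of a row. The top row has medians of -0.40 and 0.60, and the red points lie in the 1-allele panel among anion, nutrient and mucin genes.

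Among alveolar and milk genes that bear on how far the epithelium had differentiated, Csn2, the beta-casein gene, averaged 6.76 ± 0.53 in arrays labelled Stat5a-/- and 5.10 ± 0.43 in those labelled Stat5ab+/null on its brightest probe set (SD, n = 3 each), and Csn3, the kappa-casein gene, 12.06 ± 0.28 and 11.26 ± 0.32. In the 1-allele set Csn2 averaged 9.69 ± 1.43 in single-Stat5b and 9.44 ± 0.48 in single-Stat5a, and Csn3 12.14 ± 0.14 and 12.69 ± 0.61, none past the test. The Csn2 mean of 5.10 lies under the filter level. On the other probe set of each gene, in the same order of groups, Csn2 averaged 6.73, 5.86, 6.97 and 6.42. Csn3 averaged 6.25, 5.76, 7.34 and 7.24 there, also none past the test. The 1-allele difference of Csn3 was thus -0.55 on the brightest probe set and 0.10 on the other. Elf5, a transcription factor of alveolar cells, differed by 0.23 in the 1-allele set on its brightest probe set and rose by 3.82 on the other (limma adjusted p = 4.34e-05), so its probe sets are at odds there. Cel, the lipase of milk, rose by 2.82 in single-Stat5b, and Aldh1a3, a marker of luminal progenitors, fell by 1.35 on 1 of 3 probe sets. Of the 10 milk protein probe sets, 8 were above 0 in each set (medians 0.64 in the 2-allele and 0.44 in the 1-allele set). Limma called 0 and 1 of them, against 0.00952% and 2.89% of all probe sets. At an unadjusted p under 0.05 there were 4 and 3, against 2.84% and 11.8% of all.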

How the data were processed

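The 12 Affymetrix arrays were deposited by the authors as log2 probe set values. RMA summarisation and Partek software were used, per the submitters' processing notes, with versions and settings not given in the sources used here. Gene symbols came from the platform annotation, and 932 probe sets naming several genes were not assigned. Probe sets with a mean at or above the 30th percentile (31526 of 45037, without 64 control probe sets) entered limma 3.58.1 in R 4.3.3, with 1 mean per genotype, a pooled spread over the 12 arrays, eBayes and Benjamini-Hochberg adjustment. Genotypes were compared within array sets, and the interaction is the 1-allele difference minus the 2-allele difference. Members and gene lists were chosen with earlier results of these data known. All members were to be named, with list genes past the test (at most 4 per transport list and 2 per marker list). The mice are separate by label, with nothing on litters. Filters, normalizations, variance models, covariates each array left out and, after seeing the data, exchanged 2-allele labels were tried as alternatives, and the fit was tested on simulated data. Array number limits the precision.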

Additional observations from a re-analysis of the deposited data

Results flagged for a closer look

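The Slc12a2 probe set 1417622_at differed in opposite directions in the 2 array sets, and the test of that difference passed with the 2-allele arrays as labelled. The interaction was 1.39 (limma adjusted p = 0.0364): the gene was lower in all 3 arrays labelled Stat5a-/- than in all 3 labelled Stat5ab+/null, and higher in all 3 single-Stat5b than in all 3 single-Stat5a arrays. The Stat5a and Stat5b probe sets ran against the labels of the 2-allele arrays, none past the test. With those labels exchanged the 2 differences would be alike in direction and close in size, the interaction was -0.073 (adjusted p = 0.972), and the call was gone. That follows by construction, since the exchange turns the sign of the 2-allele difference, and is no test of the labels. Groups of 3 arrays are too small for a test of outlying samples.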

How the results depend on the processing

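Among the 9 tested probe sets, limma called 0 in the 2-allele set except with array weights, which called 4 (Aqp5 and the 3 of Slc12a2, against 1.36% of all probe sets), and it called 0 there with any 1 array left out. In the 1-allele set, leaving out 1 array gave 0 to 2 calls. There was 1 without single-Stat5b 1 (Gjb2), against 2.39% of all probe sets. There were 2 without single-Stat5b 3 (Slc12a2), against 6.39% of all. In the interaction, leaving out 1 array gave 0 to 2 calls. The 2 came without single-Stat5b 2 or single-Stat5b 3, against 1.65% and 1.48% of all probe sets. Array weights gave 3, against 3.23% of all. There were 0 with each array centred on its median, with the mean of the probe sets of a gene, and with 4 arrays left out together. The count was 0 too with the luminal mean, the B cell and muscle means or the actin signal as covariates. There were also 0 with the labels Stat5a-/- and Stat5ab+/null exchanged, chosen after seeing the data, where the Slc12a2 interaction turned to -0.073 (adjusted p = 0.972). The Slc12a2 interaction was 1.25 to 1.62 with 1 array left out, and under the alternatives that keep the labels its adjusted p ran from 0.00309 with array weights to 0.457 with the B cell and muscle covariates. The cause of these changes was not tested, other than that the exchange turns the sign of the 2-allele differences by construction. For Atp2b2 1420403_at, under the filter, the 2-allele difference was 0.14 with the B cell and muscle covariates, against -0.02 without them. No paired analysis was possible because the labels give the arrays no shared replicate numbers. Differences near the filter level are limited by signal over background, and 3 arrays per genotype limit the rest.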
